A study of Capsella grandiflora and Capsella rubella with 18 samples.

Results

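Some genes that lie side by side on the Capsella chromosomes differed between the flower buds of 2 sister species in the same direction, and these runs of neighbours are described here. A run was taken as 4 or more consecutive genes on scaffolds 1 to 8 in which every gene was higher in all 4 Capsella rubella bud libraries than in all 4 Capsella grandiflora bud libraries, or every gene was lower. Rows were first required to reach 1 FPKM (fragments scaled to transcript length and library size) in at least 4 of the 8 bud libraries, and 1 row was kept where rows shared coordinates. The rule found 106 genes in 24 runs, out of 15709 kept rows and 19350 rows in all. In 4 runs with 21 genes C. rubella was higher, and in 20 runs with 85 genes it was lower. These genes were chosen by the FPKM of the 8 bud libraries, so their species differences are given as a description and were not tested.

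C. rubella is a self-compatible plant that fertilises itself, and C. grandiflora is its outcrossing relative, which depends on pollinators. After a shift to selfing, flowers of crucifers typically become smaller, open less and make less pollen relative to ovules, and buds are the organ in which these traits form. Neighbouring plant genes can be copies made by tandem duplication, can share a stretch of chromatin, or can lie on a segment that is duplicated or deleted as a whole, and in each case their expression can vary together. The deposited table names genes only by identifier, so no function is attached to any gene below, and marker genes of buds or leaves were not looked up.

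The C. rubella buds came from Kalavrita (Cr_bud 1), San Luca in Italy (Cr_bud 2), Megalopoli (Cr_bud 3) and an inbred greenhouse line of Samos origin (Cr_bud 4). The C. grandiflora buds came from plants raised from seed collected in Monodendri (Cg_bud 1), Pili (Cg_bud 2) and Metsovo (Cg_bud 3), and from the F1 of a Corfu cross (Cg_bud 4). A further 10 libraries from C. grandiflora leaves, all but 1 from plants of Greek wild seed, made up the third group (Cg_leaf 1 to 10), and leaves of C. rubella were not analysed here. All plants grew in a greenhouse, buds were of mixed stages, leaves were maturing, and polyadenylated RNA was sequenced. The labels do not say whether a library holds 1 plant or several. Pili seed and a Corfu cross are each the origin of both a bud and a leaf library. Any value in buds is a mean over many cell types, so fewer cells of a type and less RNA per cell cannot be told apart.

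Bud FPKM summed to 576725 to 657140 per library and leaf FPKM to 1307609 to 1858148, and read depth is unknown. Cr_bud 1 and Cg_bud 1 held exactly 0.5 in 1137 and 1023 rows and 0 in only 4 and 6, while the other 6 bud columns held 0 in 1039 to 1520 rows. A value of 0.5 in either column is therefore printed as it stands and may stand where other columns list 0. Setting it to 0 left the same 24 runs. All columns are positioned on the CR v1 JGI build, and whether reads of both species align to it equally well was not tested.

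Separation of the 2 species in 1 gene was common. C. rubella lay above C. grandiflora in all libraries in 14.1% of the 15709 kept rows and below it in 14.2%. These are shares of single genes, whereas the 21 and 85 members also had to lie in runs, so the measures are unlike. Stretches of 1 and 2 separated genes numbered 1554 and 258 where C. rubella was higher, and 1537 and 231 where it was lower. Of the stretches of separated genes, 17 were 4 genes long (2 higher, 15 lower), 6 were 5 genes long (1 higher, 5 lower) and 1, higher in C. rubella, was 8 genes long. Just outside the rule stood 91 stretches of 3 genes (40 higher, 51 lower). In these the median absolute difference was 0.54 where C. rubella was higher and 0.87 where it was lower, on the log2(FPKM + 1) scale, beside 0.69 and 0.98 in the runs of 4. The runs lay on 7 of the scaffolds, with 8 on scaffold 1 and 0 on scaffold 4. They covered 7.18 to 60.2 kb each, with a median of 23.5 kb.

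The differences in the runs ranged widely in size. In 50 of the 106 genes (47.2%) the species differed at least 2-fold on the log2(FPKM + 1) scale, 12 of the 21 higher members (57.1%) and 38 of the 85 lower members (44.7%). Since separation itself selects large differences, the like shares are those over all separated rows, 17% where C. rubella was higher and 28.7% where it was lower, and nothing is read from the contrast. In 14 they differed at least 4-fold, 10 higher and 4 lower. The median difference was 1.27 over the higher members and -0.95 over the lower members. At the other end, 22 genes differed by less than 0.5 on this scale. Many separations were narrow: the lowest library of the higher species exceeded the highest library of the other by a median ratio of 1.25, and by less than 1.1 in 22 genes. In Carubv10015738m, a gene of scaffold 3, the closest libraries stood at 135.74 FPKM in C. rubella and 135.94 FPKM in C. grandiflora. In 9 members (4 higher, 5 lower) no library of the lower species reached 1 FPKM, so these passed the expression filter through 1 species alone.

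**Figure D1:**
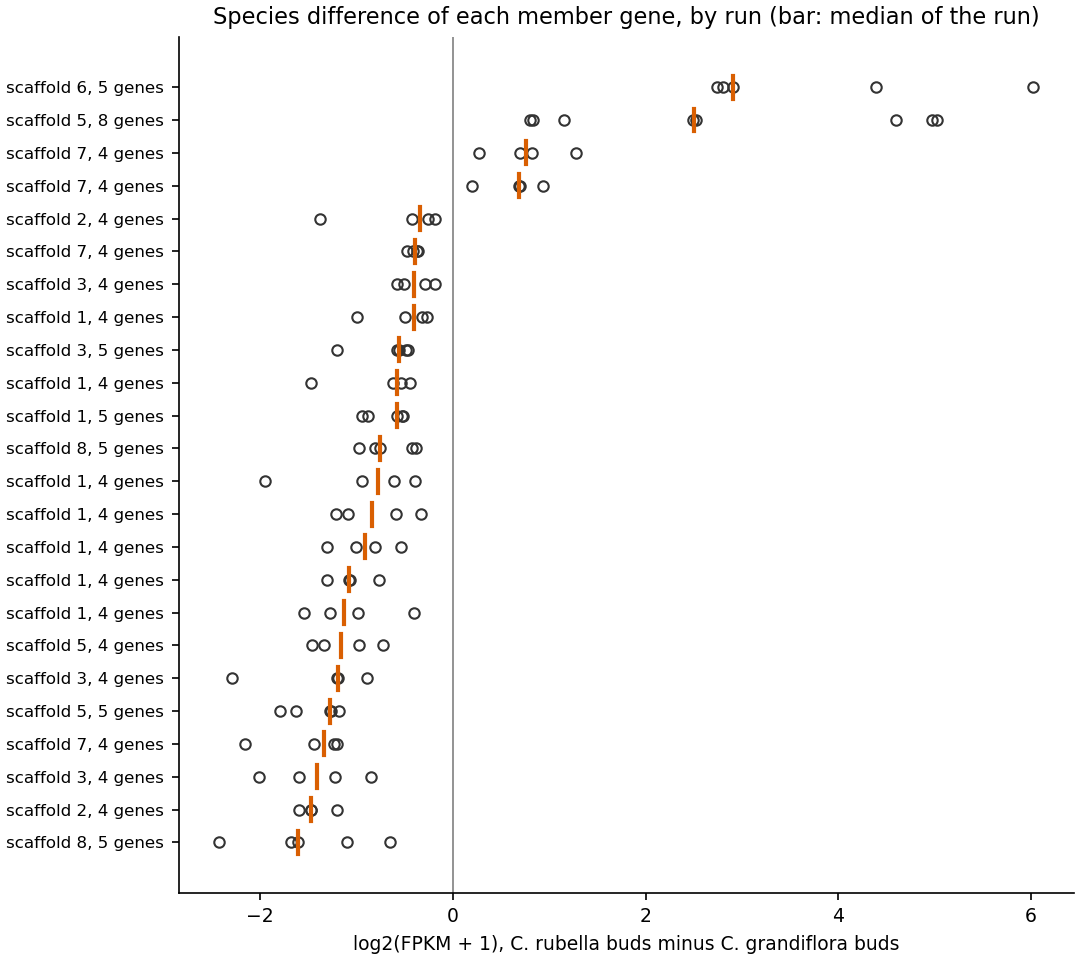
Species difference of each of the 106 member genes, as mean log2(FPKM + 1) of 4 C. rubella minus 4 C. grandiflora bud libraries, with 1 row per run in order of the run's median; each circle is a gene and each bar the median of its run. Differences in the runs lower in C. rubella lie between -2.42 and -0.18, and those in the higher runs between 0.20 and 6.02, with the scaffold 5 and scaffold 6 runs holding the largest.

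The longest run lay on scaffold 5, at 10705905 to 10740621, and held 8 genes, all higher in C. rubella buds. In its middle, 3 adjacent genes were strongly expressed in C. rubella and listed close to 0 in C. grandiflora. How well C. grandiflora reads align over these genes was not tested. Carubv10017207m (10712852 to 10715975) stood at 48.4, 32.2, 6.46 and 41.0 FPKM in Cr_bud 1 to 4, against 0.5, 0, 0 and 0 FPKM in Cg_bud 1 to 4. Carubv10017607m (10716434 to 10718075) stood at 40.5, 44.2, 44.0 and 52.6 FPKM in the C. rubella libraries, against 0.5, 0.34, 0.63 and 0.44 FPKM in the C. grandiflora libraries. Carubv10018558m (10718226 to 10719359) stood at 51.9, 53.6, 45.2 and 57.5 FPKM in C. rubella, against 0.5, 0.51, 0.67 and 0.87 FPKM in C. grandiflora. The groups were far apart in all 3 genes, and within C. rubella only Cr_bud 3 departed, in the first of them, where it was the lowest library. The differences were 4.60, 4.97 and 5.02 on the log2 scale.

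The other 5 genes of this run were expressed in both species and differed less. On the left edge, Carubv10017537m measured 7.71 ± 0.9 FPKM in C. rubella and 3.89 ± 0.615 FPKM in C. grandiflora (SD, n = 4 each). To the right of the central genes, Carubv10018550m measured 2.83 ± 0.406 FPKM in C. rubella and 0.73 ± 0.309 FPKM in C. grandiflora, and next to it Carubv10019446m measured 15.1 ± 1.98 FPKM in C. rubella and 1.86 ± 0.369 FPKM in C. grandiflora. Carubv10019139m measured 9.23 ± 1.32 FPKM in C. rubella and 4.89 ± 0.972 FPKM in C. grandiflora. The right edge was again a large difference, with Carubv10017459m at 36.4, 42.8, 37.0 and 37.7 FPKM in C. rubella against 6.73, 5.28, 4.99 and 6.64 FPKM in C. grandiflora. Size did not fall off evenly along the run, since the genes between the central 3 and the right edge differed by 1.16, 2.49 and 0.80 and the edge gene by 2.52. The kept gene just left of the run, Carubv10017686m, was separated the other way, at a mean of 43.5 FPKM in C. rubella and 51.8 FPKM in C. grandiflora.

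Leaves, which the rule did not use, showed the central 3 genes in 1 C. grandiflora library. In Cg_leaf 2, raised from Mesolongion seed, Carubv10017207m, Carubv10017607m and Carubv10018558m stood at 9.72, 22.1 and 27.2 FPKM, and each was listed at 0 in the other 9 leaf libraries. This pattern was rare: 9 of the 15709 kept rows reached 5 FPKM in 1 leaf library and were listed at 0 in the other 9, and 3 of the 9 were these neighbours. Cg_leaf 2 had 4 such rows in all, the 4th being Carubv10025081m on scaffold 4 at 27.3 FPKM. The right edge gene, Carubv10017459m, was also highest in Cg_leaf 2, at 10.7 FPKM, with 2.34 FPKM in Cg_leaf 7 and 0 in the other 8. The remaining 4 genes of the run were detected in all 10 leaf libraries, between 0.401 and 3.82 FPKM. The species contrast of the central genes in buds therefore stands beside variation of the same genes among C. grandiflora leaves, in columns that differ from the bud columns in rounding and scale.

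**Figure D2:**
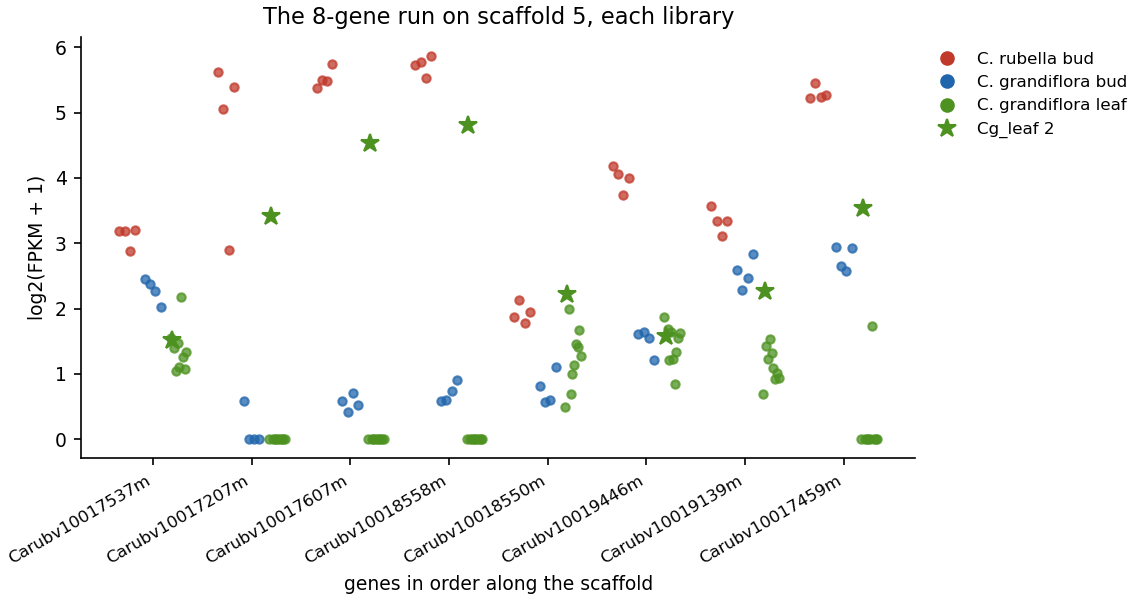
Level of each of the 8 genes of the scaffold 5 run, in log2(FPKM + 1), with genes in chromosomal order on the horizontal axis and 1 point per library for C. rubella buds, C. grandiflora buds and C. grandiflora leaf, where a star marks Cg_leaf 2. The 3 central genes are high in the C. rubella buds and near 0 in C. grandiflora buds and in all leaf libraries but Cg_leaf 2, which stands at 9.72 to 27.2 FPKM.

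A run of 5 genes on scaffold 6, at 672196 to 683895, was also higher in C. rubella, by 2.74 to 6.02 on the log2 scale. Carubv10003650m, the highest of them in C. rubella, stood at 293.7, 266.7, 263.7 and 314.7 FPKM in Cr_bud 1 to 4, against 14.7, 4.38, 55.0 and 6.18 FPKM in Cg_bud 1 to 4. Carubv10003475m stood at 105.99, 98.5, 86.1 and 108.5 FPKM in C. rubella, against 16.9, 4.2, 67.5 and 3.99 FPKM in C. grandiflora. Carubv10003698m stood at 55.0, 48.9, 75.3 and 97.4 FPKM in C. rubella, against 8, 3.74, 36.8 and 4.43 FPKM in C. grandiflora. The C. grandiflora libraries thus disagreed among themselves: Cg_bud 3 was the highest of the 4 in each of these genes and in Carubv10003102m, where it held 4.51 FPKM. The C. rubella libraries varied less relative to their means. Only the last gene broke with this order, since Carubv10001442m measured 84.2 ± 15.9 FPKM in C. rubella and 0.315 ± 0.25 FPKM in C. grandiflora (SD, n = 4 each), with Cg_bud 3 at 0.23 FPKM.

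In leaf this run split in parts. Carubv10003698m and Carubv10003102m were listed at 0 in all 10 leaf libraries. The other 3 genes varied strongly between leaf libraries, from 0.684 to 37.3 FPKM in Carubv10003475m, from 0.698 to 76.6 FPKM in Carubv10003650m and from 0 to 26.3 FPKM in Carubv10001442m. Carubv10001442m was at 21.0 to 26.3 FPKM in Cg_leaf 1, 2, 5 and 7, at 0.709 and 2.39 FPKM in Cg_leaf 4 and 6, and at 0 in the remaining 4, so a gene close to 0 in all 4 C. grandiflora buds was expressed in some leaf libraries of that species. Across the 10 leaf libraries, the correlation of log2(FPKM + 1) was 0.851 between Carubv10003475m and Carubv10003650m and 0.853 between Carubv10003650m and Carubv10001442m. These points share their libraries. The tissue fit that follows uses the C. grandiflora bud values, for whose low level the rule chose this run. In the limma fit of 4 C. grandiflora bud against 10 leaf libraries, Carubv10003698m was higher in buds by 3.27 (SE 0.371, adjusted p = 1.1e-06). Its C. grandiflora bud values ran from 3.74 to 36.8 FPKM and all 10 leaf values were 0. The SE pools both groups, so SE and p understate the spread between the bud libraries. Differences of -0.07 (SE 0.923, adjusted p = 0.947), -0.13 (SE 0.96, adjusted p = 0.911) and -1.73 (SE 1.03, adjusted p = 0.147) for Carubv10003475m, Carubv10003650m and Carubv10001442m did not pass that limma test, and the signs of the first 2 turned with upper quartile scaling.

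**Figure D3:**
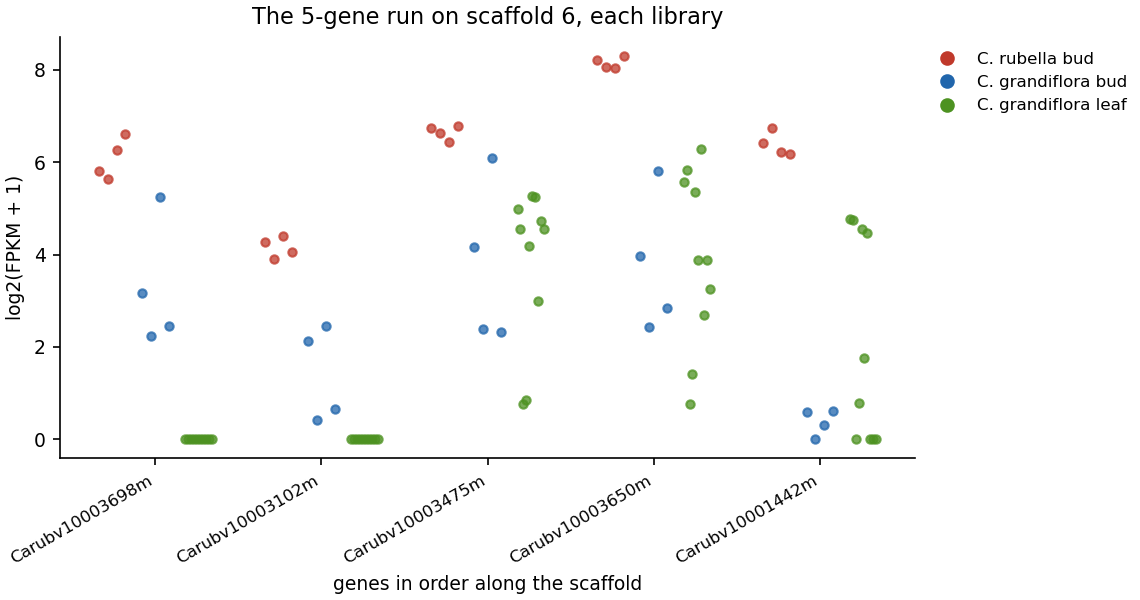
Level of each of the 5 genes of the scaffold 6 run, in log2(FPKM + 1), with genes in chromosomal order and 1 point per library for C. rubella buds, C. grandiflora buds and C. grandiflora leaf. The C. rubella buds stand above the C. grandiflora buds in every gene, Cg_bud 3 is the highest C. grandiflora bud library in the first 4, and the last 3 genes spread widely over the leaf libraries.

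The remaining 2 runs that were higher in C. rubella lay on scaffold 7 and held 4 genes each with smaller differences. In the first, at 205088 to 221488, differences ran from 0.20 to 0.94. Its named gene, Carubv10005442m, stood at 7.37, 10.6, 11.7 and 15.5 FPKM in C. rubella against 4.78, 5.74, 5.82 and 4.69 FPKM in C. grandiflora. The second, at 14624273 to 14655466, spanned differences of 0.27 to 1.27, the largest in Carubv10005856m at 9.17 ± 1.57 FPKM in C. rubella and 3.22 ± 0.759 FPKM in C. grandiflora (SD, n = 4 each). Its neighbour Carubv10005376m was low in the buds of both species, at 2.45 ± 0.872 FPKM in C. rubella and 0.91 ± 0.22 FPKM in C. grandiflora, and reached 4.08 to 51.6 FPKM in leaf. In C. grandiflora its limma difference of buds minus leaf was -3.03 (SE 0.62, adjusted p = 0.000466). The rule chose it for low C. grandiflora bud values. With C. rubella buds against the same leaves, the limma difference was -2.21 (SE 0.625, adjusted p = 0.00551). The member of this run with the smallest difference, Carubv10004020m, shared its coordinates with Carubv10006192m. That row was not separated, at 2.54, 3.68, 2.8 and 2.83 FPKM in C. rubella against 3.88, 2.45, 2.02 and 2.18 FPKM in C. grandiflora. The run therefore depended on which row was kept. With only coordinate strings held by 1 row, 3 higher runs with 17 genes were found.

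Among the 20 runs lower in C. rubella, 5 with 21 genes stood out by their leaf values: every gene averaged below 1 FPKM in leaf, 15 were listed at 0 in all 10 leaf libraries, and the highest single leaf value was 1.04 FPKM. Apart from 1 gene picked per run, and all genes of the 9810096 run, the genes named from these 5 runs were chosen after their values were seen. The most abundant run lay on scaffold 2, at 12157039 to 12167941. Carubv10021513m stood at 303, 256, 554 and 260 FPKM in Cr_bud 1 to 4, against 898, 1040, 950 and 1079 FPKM in Cg_bud 1 to 4. At its other end, Carubv10021944m averaged 318 ± 143 FPKM in C. rubella and 838 ± 119 FPKM in C. grandiflora (SD, n = 4 each). Cr_bud 3 was the highest C. rubella library in all 4 genes of this run.

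The closest pair of runs lay on scaffold 3, at 7977240 to 7989597 and 7997388 to 8004567, only 7790 bases apart. In the first, Carubv10015340m stood at 15.4, 41.6, 5.53 and 14.8 FPKM in C. rubella, against 86.6, 62.1, 71.5 and 103.1 FPKM in C. grandiflora, a difference of -2.29. In the second, Carubv10016029m stood at 5.37, 48.0, 40.8 and 23.9 FPKM in C. rubella, against 102.5, 102.5, 70.9 and 111.1 FPKM in C. grandiflora, a difference of -2.01. The C. rubella libraries spread widely in these genes without reaching the C. grandiflora range. The 3 kept genes between the runs also had lower means in C. rubella, by 0.92 to 1.27 on the log2 scale, but their libraries overlapped, which is why the rule split the stretch. From 7970548 to 8008985, a stretch of 38.4 kb with limits chosen after the values were seen, all 15 kept genes had the lower mean in C. rubella, 10 of them separated, and 13 had a listed value of 0 in every leaf library.

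**Figure D4:**
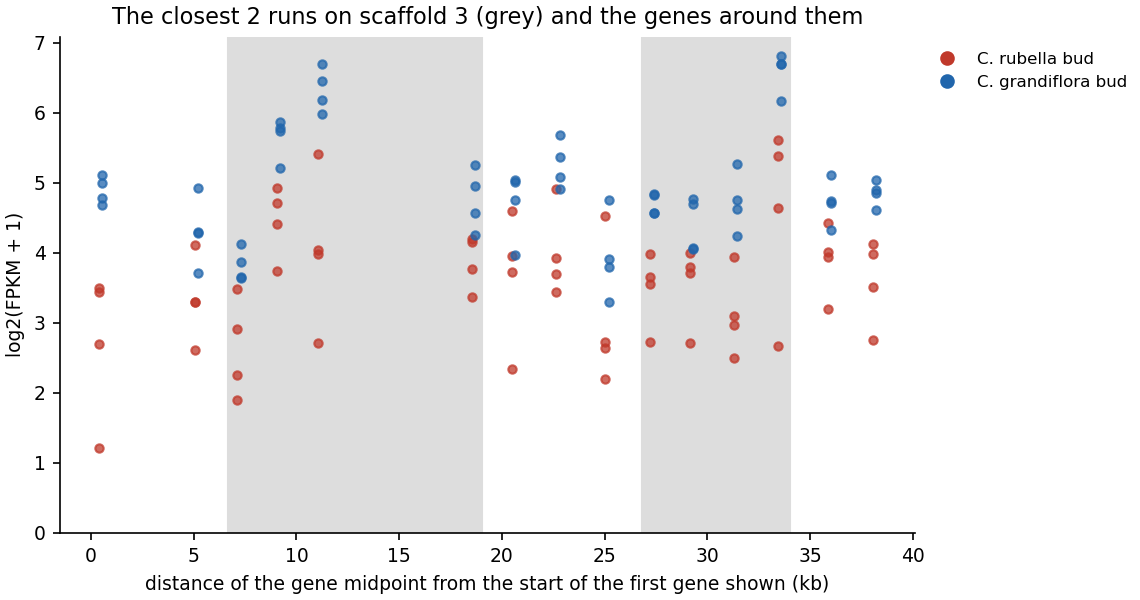
Bud levels, in log2(FPKM + 1), of the 15 kept genes in and around the 2 closest runs on scaffold 3, against the distance of each gene's midpoint from the first gene's start in kb, with 1 point per library of C. rubella and C. grandiflora and the runs shaded grey. The 8 genes of the runs are separated, and the 3 between the runs have lower C. rubella means but overlapping libraries.

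On scaffold 5, a run at 9810096 to 9818563 held 5 short genes with spans of 559 to 666 bases and differences of -1.80 to -1.18. Carubv10018916m stood at 7.89, 15.9, 7.22 and 4.38 FPKM in Cr_bud 1 to 4, against 31.3, 30.6, 23.0 and 38.4 FPKM in Cg_bud 1 to 4. Carubv10018797m stood at 2.35, 6.73, 3.58 and 1.65 FPKM in C. rubella, against 9.17, 9.97, 13.0 and 17.4 FPKM in C. grandiflora. In all 5 genes Cr_bud 2 was the highest and Cr_bud 4 the lowest C. rubella library. The means of Carubv10019468m, Carubv10018585m and Carubv10019336m were 11.6, 15.0 and 12.5 FPKM in C. rubella, against 28.1, 33.7 and 29.1 FPKM in C. grandiflora. The last run of this kind, on scaffold 5 at 11879574 to 11892835, was weakly expressed. Its Carubv10019067m stood at 0.25, 1.9, 0.6 and 1.08 FPKM in C. rubella against 2.29, 3.22, 6.6 and 5.57 FPKM in C. grandiflora.

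Genes in these 5 runs sat at similar distances from each other. Of their 16 gaps, 13 measured between 800 and 1200 bases, a window chosen after the gaps were seen, beside 8.46% of the gaps between all neighbouring kept rows. Their median gap was 1000.5 bases, with a range of 813 to 6563. Whether these neighbours are copies of one another was not tested, since no sequences were used here.

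A pair of runs on scaffold 8 was also lower in C. rubella. The run at 5844991 to 5859573 held the largest decrease of all members, in Carubv10027733m, at 1.51, 1.52, 2.48 and 0.61 FPKM in C. rubella against 15.9, 10.02, 15.3 and 8.73 FPKM in C. grandiflora, a difference of -2.42. Beside it, Carubv10027875m measured 0.785 ± 0.337 FPKM in C. rubella and 4.54 ± 1.63 FPKM in C. grandiflora, and Carubv10026424m measured 2.55 ± 0.466 FPKM in C. rubella and 10.6 ± 2.8 FPKM in C. grandiflora (SD, n = 4 each). The edge genes Carubv10027530m and Carubv10026215m differed less, by -1.10 and -0.65. Leaf libraries listed Carubv10027733m and Carubv10027875m at 0 without exception, whereas Carubv10026215m was detected in all 10, at 0.743 to 5.81 FPKM.

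The other scaffold 8 run, at 8929479 to 8989707, was the longest in bases and had the smaller differences, from -0.98 in Carubv10028134m to -0.39 in Carubv10026465m. Carubv10028007m, the most abundant, measured 40.9 ± 1.89 FPKM in C. rubella and 55.4 ± 4.12 FPKM in C. grandiflora (SD, n = 4 each). Carubv10027989m and Carubv10027810m were near the filter, at means of 1.08 and 0.623 FPKM in C. rubella and 2.29 and 1.84 FPKM in C. grandiflora. This run was consecutive only after filtering, because 11 rows below the filter lay inside it. Their means were 0.0775 to 0.435 FPKM in C. rubella and 0.107 to 1.31 FPKM in C. grandiflora, and 10 of the 11 had the lower mean in C. rubella. Over all runs, 16 rows below the filter lay inside 5 runs, 14 of them with the lower mean in C. rubella. The like share over all rows below the filter was not taken. Across the whole table, Cr_bud 2 to 4 listed 0 in 1321 to 1520 rows and Cg_bud 2 to 4 in 1039 to 1250. Nothing is read from these counts.

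The remaining 13 lower runs mixed large and small differences. On scaffold 1, Carubv10012005m (run at 9822503 to 9867771) stood at 4.52, 29.8, 33.0 and 20.7 FPKM in C. rubella against 83, 71.7, 59 and 75.7 FPKM in C. grandiflora, a difference of -1.95, while another member of its run differed by -0.39. On scaffold 7, Carubv10006846m (run at 7204356 to 7222785) stood at 0.5, 0, 0 and 0 FPKM in C. rubella against 3.24, 7.21, 2.28 and 4.15 FPKM in C. grandiflora. On scaffold 1, Carubv10012593m (run at 8597478 to 8619440) likewise stood at 0.5, 0, 0 and 0 FPKM in C. rubella against 2.1, 2.05, 2.14 and 2.66 FPKM in C. grandiflora. These last 2 genes were near absent from C. rubella buds but differed in leaf. Carubv10012593m was listed at 0 in all 10 leaf libraries, and Carubv10006846m ranged from 0 to 17.4 FPKM, with 0 in 5 of them.

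In 8 more of these runs the largest difference lay near or beyond 2-fold. These were Carubv10011281m at -1.47, Carubv10020165m at -1.38, Carubv10009241m at -1.31, Carubv10012172m at -1.30, Carubv10010112m at -1.22, Carubv10015738m at -1.20, Carubv10012504m at -0.998 and Carubv10011730m at -0.94. The 2 flattest runs, at 14298638 to 14316894 on scaffold 3 and at 1546265 to 1582553 on scaffold 7, had their largest differences in Carubv10013602m, at -0.58, and Carubv10004530m, at -0.48. The run of Carubv10010112m, on scaffold 1 at 10097009 to 10123030, was flanked on both sides by genes separated the other way. These were Carubv10011510m, at 12.9 FPKM in C. rubella and 5.16 FPKM in C. grandiflora, and Carubv10009519m, at 12.5 FPKM in C. rubella and 1.89 FPKM in C. grandiflora.

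Low leaf expression was shared by many lower members and was not limited to the 5 runs above. Of the 106 members, 30 (28.3%) were listed at 0 in all 10 leaf libraries, against 606 of the 15709 kept rows (3.86%). By direction these were 28 of the 85 lower members (32.9%), beside 11% of all kept rows separated and lower in C. rubella, and 2 of the 21 higher members (9.52%), beside 1.58% of all rows separated and higher. The median leaf mean was 0.6 FPKM over the lower members, 2.72 FPKM over the higher members and 12.9 FPKM over the kept rows. Over all rows separated lower and higher it was 5.73 and 19.6 FPKM. Bud levels were closer, with medians of 10.9 FPKM over the lower members, 13.4 FPKM over the higher members and 13.7 FPKM over the kept rows. At least 1 member at 0 in all leaf libraries was found in 16 runs with 70 genes, and none in 8 runs with 36 genes.

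**Figure D5:**
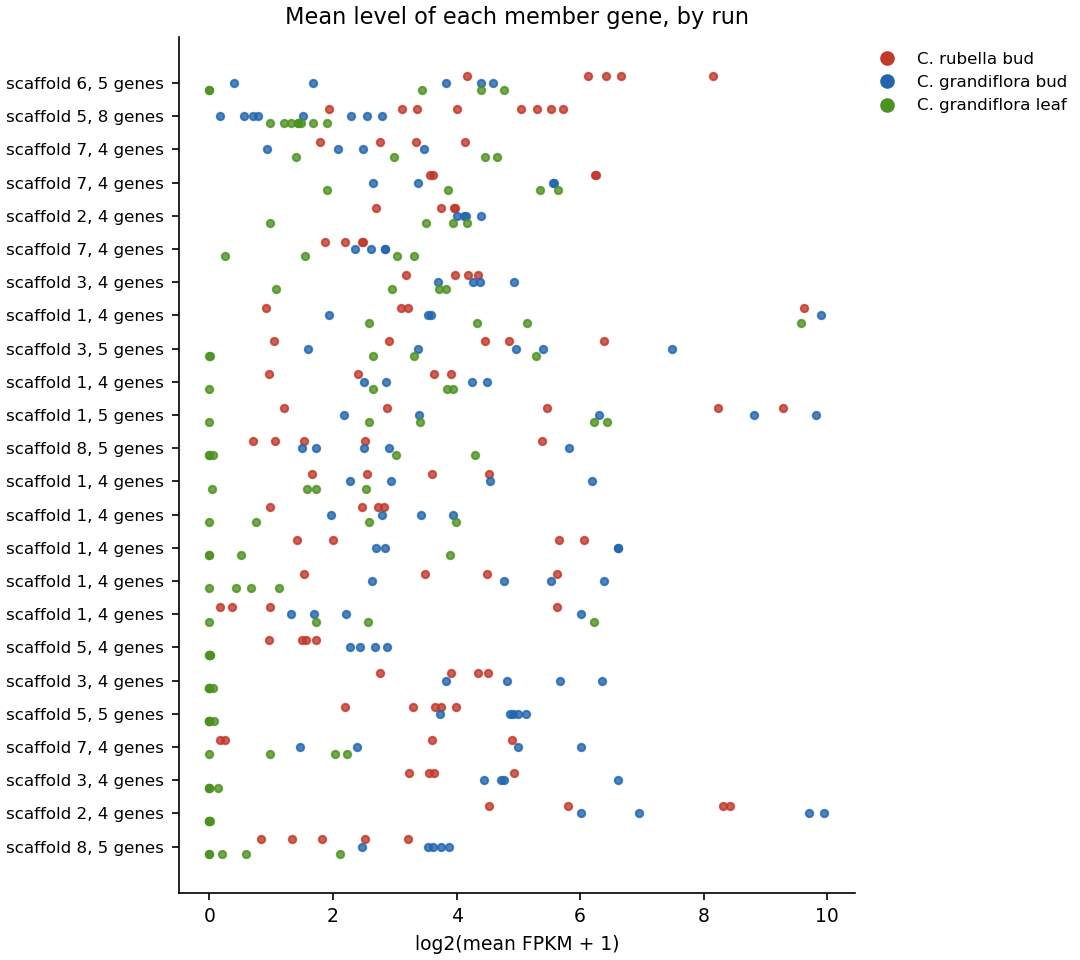
Mean level of the members of each run, as log2(mean FPKM + 1), in C. rubella buds, C. grandiflora buds and C. grandiflora leaf; each point is a gene in 1 group, and the scale of the leaf columns differs from that of the buds. Members of the runs lower in C. rubella crowd at leaf means near 0, with a median of 0.6 FPKM, beside 5.73 FPKM over all rows separated and lower. Their bud means have a median of 10.9 FPKM.

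The comparison of C. grandiflora buds with leaf asked how the run genes are divided between tissues. In the limma fit 37.4% of 17229 tested genes were higher in buds and 32.2% lower, at a Benjamini-Hochberg adjusted p below 0.05. Of the 85 lower members, 66 were higher in buds and 3 lower, and of all 2237 kept rows separated and lower in C. rubella, 1459 were higher in buds and 274 lower. Of the 21 higher members, 17 were tested, 6 higher in buds and 5 lower, a balance that became 4 higher and 7 lower with quantile normalization. Those not tested, among them the central 3 of the scaffold 5 run, were too low in C. grandiflora buds and in leaf to enter the fit. Of all kept rows separated and higher in C. rubella, 2121 were tested, 546 higher in buds and 953 lower. The median difference was 2.35 over the lower members, beside 1.16 over all rows separated and lower. It was -0.07 over the higher members tested, beside -0.41 over all rows separated and higher and 0.24 over the kept rows. Since the rule chose lower members for high C. grandiflora bud values, C. rubella buds were set against the same leaves in a separate fit, in which species and tissue cannot be told apart. There 37.4% of 17150 tested genes were higher in buds and 32.4% lower. Of the lower members 75 were tested, 49 higher in buds and 7 lower, with a median of 1.55. The 10 not tested, Carubv10027733m among them, were too low in C. rubella buds and in leaf to enter this fit. Of all rows separated and lower, 2038 were tested, 988 of them higher in buds, with a median of 0.48. Of the 21 higher members, 15 were higher and 2 lower, with a median of 2.54, but these were chosen for high C. rubella bud values and nothing is read from that count. Both fits share the leaf libraries, and in both the difference in scale between bud and leaf columns coincides with tissue.

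The strongest bud and leaf contrasts among named genes were in the lower runs. The rule chose these for high C. grandiflora bud values, so their direction was partly set in advance and nothing is read from it. With C. rubella buds against the same leaves, the differences were 8.35 in Carubv10021513m, 6.27 in Carubv10015738m and 4.58 in Carubv10016029m. Carubv10021513m had a difference of 9.95 between C. grandiflora buds and leaf (SE 0.119, limma adjusted p = 8.11e-18), with 992 ± 82.3 FPKM in buds (SD, n = 4) and 0 in every leaf library. Carubv10015738m was higher by 7.47 (SE 0.131, limma adjusted p = 2.99e-16). Carubv10016029m, of the scaffold 3 pair of runs, differed by 6.59 (SE 0.128, limma adjusted p = 7.64e-16). Among the lower members called lower in buds, Carubv10004530m differed by -0.88 (SE 0.28, limma adjusted p = 0.0116). The other 2, outside the named set, were Carubv10009313m at -1.49 and Carubv10008945m at -0.76.

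Neighbours in runs were weakly correlated in leaf, where the rule did not act, and the median depended on Cg_leaf 2. Across the 10 leaf libraries, the median correlation between adjacent members was 0.201 over the 44 of 82 pairs with variation in both genes, 29 of them above 0, against 0.118 over 14602 adjacent pairs of kept rows. By direction it was 0.296 over 29 pairs of lower runs and 0.126 over 15 pairs of higher runs. Over adjacent rows separated lower and higher it was 0.0883 and 0.0916. The 44 include Carubv10017207m with Carubv10017607m and Carubv10017607m with Carubv10018558m, each at a correlation of 1 through Cg_leaf 2 alone. Without Cg_leaf 2 the median over the members was 0.0753, and the value over all kept pairs without it was not taken. In buds, after subtracting each species' mean, the median was 0.339 over all 82 pairs, with 72% above 0. The same measure was 0.0464 over all adjacent kept rows, with 53.8% above 0, and 0.174 and 0.132 over adjacent rows separated lower and higher. These bud values come from the libraries that chose the runs. Over all pairs within a run, the median leaf correlation ranged from -0.349 in the scaffold 1 run at 10097009 to 0.851 in the scaffold 6 run, each over 3 pairs. The 28 pairs of the scaffold 5 run of 8 genes had a median of 0.574, which includes the 3 central genes listed at 0 in all leaf libraries but Cg_leaf 2.

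Members lay closer together and had shorter spans than the kept rows at the median. The median gap was 1201 bases between members and 1907 bases between adjacent kept rows, and 58.5% of member gaps against 51% of all gaps were under 2000 bases. By direction the median gap was 1158 bases in lower and 1330 in higher runs, beside 1562.5 and 2044 between adjacent rows separated that way. Gaps under 2000 bases made up 60% and 52.9% there, beside 55.8% and 49.3%. The lower quartile was 580.5 bases for members and 574 for kept rows, and nothing is read from these contrasts. The median span was 2114.5 bases for members and 2502 for kept rows. It was 2117 for lower and 2073 for higher members, beside 2545 and 2281 for all rows separated that way. No members overlapped. In 2 cases another row shared a member's coordinates, so that reads of a locus may be divided between rows.

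Beyond the edges of the runs the direction was mixed. Of the 48 kept genes directly beside a run, 20 (41.7%) had means in the run's direction, and 6 were separated in the opposite direction. One step further out, 25 of 48 followed the run, with 6 separated the same way and 11 the opposite way, and at the third position 27 of 48 followed it, with 10 separated the same way and 5 the opposite way. Over all kept rows 14.1% were separated higher and 14.2% lower. Beside the runs higher in C. rubella, 1 of the 8 adjacent genes followed the run. The rule ends a run at the first gene that is not separated, so a direct neighbour separated the same way could not occur.

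Single libraries contributed unevenly. In the 85 lower members, Cr_bud 4 was the lowest C. rubella library in 47 (55.3%), against 42% of all rows separated and lower, and Cr_bud 3 was the highest in 36 (42.4%), against 39.2%. Where runs were taken from 7 libraries and the 8th was then read, it lay on the side of its own species in 83.3% (Cr_bud 3) to 100% (Cg_bud 4) of genes in lower runs, beside 82.3% and 91% of all rows separated in that direction when the same library was left out. In higher runs the range was 70.9% (Cr_bud 3) to 96% (Cg_bud 2), beside 84.4% and 89.6%. In the higher runs the share lay below that over all separated rows with Cr_bud 2, Cr_bud 3, Cr_bud 4, Cg_bud 3 or Cg_bud 4 left out, and in the lower runs with Cr_bud 2 left out. These differences were not tested.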

How the data were processed

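The authors deposited expression as FPKM, per the file headers, in 1 table of 19350 rows and 18 library columns positioned on the CR v1 JGI build. Bowtie, TopHat and Cufflinks are named in the submitters' processing notes. Their versions, parameters and scaling were not given in the sources used here. Bud columns carry 2 decimals and leaf columns more, and 2496 rows share coordinates with another row. Columns were assigned to libraries by name.

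Runs were taken in Python 3.11.15 (pandas 2.3.3, numpy 2.4.6). Differences are means of log2(FPKM + 1), which understates the change of low genes. Bud and leaf differences came from limma 3.58.1 under R 4.3.3 (moderated, mean trend, Benjamini-Hochberg, threshold 0.05) on rows with at least 1 FPKM in at least 4 libraries, and the fit was tested on simulated data. With a library left out the filter was asked in 3. Figures were drawn with matplotlib 3.10.9. The p-values measure the spread between these libraries, which the labels do not call separate plants.

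Named genes were all members of the 3 longest runs in each direction (ties by the larger median difference) and the member with the largest difference of every other run, 50 in all. A further part of that rule, on protein identity, and the lists of tissue markers and gene families could not be applied, since gene names and proteins were not used here. Members and lists were chosen with earlier results of these data known. Alternatives covered the filter, the choice among rows sharing coordinates, run length, scaling, the pseudocount and leaving out libraries; those on the value 0.5, on neighbours within 20000 bases, on the order of filtering, on bud correlations and on Cg_leaf 2 were chosen after seeing the data.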

Additional observations from a re-analysis of the deposited data

Results flagged for a closer look

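In 133 sets of libraries over the 50 named genes, 22 held a library that Dixon's test set apart from its group. The test's chance rate of about 1 in 20 holds for independent normal values. Some of these sets hold 0 in all libraries but 1, and neighbouring genes are not independent. The 22 can therefore not be set against that rate. Of the 22, 6 were Cg_leaf 2, and 5 of these fell in the scaffold 5 run of 8 genes. They were Carubv10017207m at 9.72 FPKM, Carubv10017607m at 22.1 FPKM, Carubv10018558m at 27.2 FPKM, Carubv10019139m at 3.82 FPKM and Carubv10017459m at 10.7 FPKM. The 6th was Carubv10019067m, at 0.0513 FPKM where the other leaf libraries listed 0.

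Other leaf libraries that stood high were Cg_leaf 5 in Carubv10009241m at 1.55 FPKM, Cg_leaf 4 in Carubv10013602m at 3.16 FPKM and in Carubv10004020m at 5.25 FPKM, Cg_leaf 7 in Carubv10017537m at 3.52 FPKM, and Cg_leaf 8 in Carubv10006846m at 17.4 FPKM.

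Among C. rubella buds, Cr_bud 3 stood high in Carubv10021513m at 554 FPKM and in Carubv10026424m at 3.25 FPKM, and low in Carubv10017537m at 6.36 FPKM. Cr_bud 4 stood low in Carubv10009241m at 5.68 FPKM and in Carubv10007513m at 15.2 FPKM. Cr_bud 1 held 0.5 in Carubv10012593m and in Carubv10006846m where the other 3 held 0.

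Among C. grandiflora buds, Cg_bud 3 stood high in Carubv10003698m at 36.8 FPKM and in Carubv10026215m at 17.9 FPKM. Cg_bud 4 stood high in Carubv10012593m at 2.66 FPKM, and Cg_bud 1 held 0.5 in Carubv10017207m where the other 3 held 0.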

How the results depend on the processing

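The counts of 20 lower runs (85 genes) and 4 higher runs (21 genes) moved with the filter, the run length and the libraries. A filter of 5 FPKM gave 10 lower runs with 41 genes. Requiring 1 FPKM in all 8 libraries gave 12 lower runs (52 genes) and 2 higher runs (8 genes). A minimum length of 3 gave 71 lower (238 genes) and 44 higher (141 genes), and a minimum of 5 gave 5 lower (25 genes) and 2 higher (13 genes). Quantile normalization put 32 genes in higher runs. Without Cr_bud 1 and Cg_bud 1, in which 0.5 may stand where other columns list 0, there were 33 lower runs (139 genes) and 13 higher (61 genes). Leaving out 1 library gave 18 to 36 lower runs (76 to 156 genes) and 5 to 13 higher runs (25 to 55 genes). The lower counts moved by over 1.5 times only without Cr_bud 3, and the higher counts without Cr_bud 3, Cr_bud 4, Cg_bud 1, Cg_bud 3 or Cg_bud 4. Fewer libraries make separation easier. Counts under the other run alternatives stayed within 1.5 times, but members changed: limma calls in place of separation shared 46 of the 85 lower and 13 of the 21 higher members, quantile normalization 55 and 17, and no filter 66 and 21.

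The leaf correlation of neighbours was 0.279 with Spearman, 0.296 where both genes averaged at least 5 FPKM in leaf, 0.339 in buds, and 0.0753 (without Cg_leaf 2) to 0.321 with a leaf library left out. Members at 0 in all leaf libraries numbered 34 without Cg_leaf 2.

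The bud and leaf difference changed sign in 6 named genes, and the cause was not tested. Carubv10012504m (-0.22) became 0.074 with a pseudocount of 0.1 and 0.00447 with upper quartile scaling. Carubv10003475m (-0.07) became 0.026 and 0.19 there, and -0.859 (without Cg_bud 3) to 0.401 (without Cg_bud 4) with a bud library left out, including 0.381 without Cg_bud 2. Carubv10003650m (-0.13) became 0.14 with upper quartile scaling, and -0.809 (without Cg_bud 3) to 0.318 (without Cg_bud 2) with a library left out, including 0.179 without Cg_bud 4. Carubv10026465m (-0.07) became 0.20 with upper quartile scaling. With quantile normalization, Carubv10017537m (0.89) became -0.20 and Carubv10019446m (0.05) became -1.10, and the second was -0.000698 without Cg_bud 2. Of the lower members, 61 to 71 were higher in buds under the alternatives. Over all tested genes the median bud and leaf difference was 0.42 with upper quartile scaling, -0.08 with quantile normalization and 0.13 as deposited, and 63.2%, 48.4% and 53.8% of called genes were higher in buds. No paired analysis was possible because the labels carry no replicate numbers, and the bud and leaf libraries that share an origin (Pili, Corfu) were treated as unrelated.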
